A study of Caenorhabditis elegans with 2 samples.

Results

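Peak-dense stretches of the Caenorhabditis elegans genome are described here as they appear in a ChIP-seq study of the homeodomain protein CEH-63. Each chromosome was divided into 20 kb bins from its first base, and the bins were chosen by the number of summits that the deposited pooled peak list placed in them, with 14 or more required. This rule kept 53 of 5016 bins, called dense bins below, and 797 of 30000 pooled peaks. The other 4963 bins held the remaining 29203 peaks. The dense bins covered 1060000 of 100272607 bases, or 1.06% of the nuclear genome, and held 2.66% of the pooled peaks. Because the summit counts chose the bins, those counts, and the ranks and signals from the same peak calling, are a description, and no test was made on them.

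The study comprised 1 group of 2 biological replicates, so it compares no conditions. Both replicates were whole starved L1 larvae of mixed sex, 6 hours old, of strain OP742, which carries the integrated transgene wgIs742 (C02F12.10, the sequence name of ceh-63, fused to TY1, EGFP and 3xFLAG, together with unc-119(+)) in an unc-119(tm4063) mutant background. Chromatin was precipitated with an anti-GFP antibody according to the sample descriptions, whereas the antibody field names ceh-63. The line is a single transgenic strain, no untagged or wild-type worms are among the samples, and the control library was not analysed here.

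ChIP-seq maps where a protein is held near DNA: crosslinked chromatin is sheared, precipitated through the protein or its tag, and sequenced, and a peak marks a place where fragments accumulate over a control. The best-known place of expression of CEH-63 is DVC, a single interneuron of the worm, and homeodomain proteins often bind short AT-rich words built around TAAT. In worms, as in flies and human cells, ChIP-seq of many unrelated factors has found highly occupied target regions, stretches of open chromatin where peaks of most factors coincide. Whether the dense bins overlap such regions was not analysed here. Whole larvae were used, so a peak cannot be assigned to a cell type.

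Sequences of 5 places in dense bins show what the crowded peaks look like at the level of bases. They were read from the RefSeq WBcel235 assembly, the same sequence as ce11, on its forward strand. The first is the strongest peak of the densest bin with its neighbour, in an intron of mnk-1 at chrII:10552355-10552654, and the second is the strongest pair of peaks in an intron of pqn-41 at chrIII:1921329-1921628. In these pairs the capitals mark the bases shared by both peak intervals, 148 bases in mnk-1 and 163 bases in pqn-41. The other 3 are windows of 101 bases around summits, with the 21 bases at the summit in capitals: upstream of rpl-15 at chrIV:654887-654987 (pooled rank 36), upstream of tag-52 at chrX:3678820-3678920 (pooled rank 17), and in an intron of lin-14 at chrX:11476652-11476752 (pooled rank 490).
mnk-1 pair: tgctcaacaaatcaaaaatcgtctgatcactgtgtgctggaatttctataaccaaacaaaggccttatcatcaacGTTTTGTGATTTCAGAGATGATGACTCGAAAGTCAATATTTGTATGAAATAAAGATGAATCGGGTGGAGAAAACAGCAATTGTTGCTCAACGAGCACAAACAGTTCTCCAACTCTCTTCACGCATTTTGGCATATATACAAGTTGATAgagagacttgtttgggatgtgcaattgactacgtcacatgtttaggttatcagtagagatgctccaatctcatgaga
pqn-41 pair: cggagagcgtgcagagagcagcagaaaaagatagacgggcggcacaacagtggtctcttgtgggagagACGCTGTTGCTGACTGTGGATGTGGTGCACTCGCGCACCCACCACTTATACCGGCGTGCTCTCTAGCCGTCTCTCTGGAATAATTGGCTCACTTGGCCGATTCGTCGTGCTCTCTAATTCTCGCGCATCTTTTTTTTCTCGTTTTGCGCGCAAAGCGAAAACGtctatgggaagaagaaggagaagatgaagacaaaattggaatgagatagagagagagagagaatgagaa
rpl-15: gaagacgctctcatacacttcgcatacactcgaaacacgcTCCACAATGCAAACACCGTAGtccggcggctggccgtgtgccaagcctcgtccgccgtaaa
tag-52: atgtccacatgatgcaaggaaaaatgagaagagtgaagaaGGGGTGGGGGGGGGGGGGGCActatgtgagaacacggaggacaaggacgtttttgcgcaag
lin-14: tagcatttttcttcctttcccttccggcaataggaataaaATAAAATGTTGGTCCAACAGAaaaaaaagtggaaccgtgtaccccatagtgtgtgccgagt

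The bases differed widely between these places. GC content was 38.0% over the 300 bases of the mnk-1 pair, 50.3% over those of the pqn-41 pair, 57.4% in the rpl-15 window, 53.5% in the tag-52 window and 40.6% in the lin-14 window. The tag-52 summit lies in a run of G. Among all summits of dense bins, the homeodomain word TAATTA occurred within 50 bp of 26 of 797, or 3.26% (95% Wilson interval 2.24 to 4.74), searched on both strands, which are the same word. The share was 3.92% (3.70 to 4.15) at the other pooled summits. It was 3.93% over 10496 windows of that length in the dense bins and 4.75% over 992797 in the genome. The word GAGAGA (or its reverse complement) was found near 73 summits of dense bins, or 9.16% (7.35 to 11.4), against 6.92% (6.64 to 7.22) at the other summits. It was found in 7.17% of these windows of the dense bins and 5.18% of those of the genome. TTTTTT (or its reverse complement) occurred near 31.7% of dense-bin summits and 31.0% of the others, but in 39.7% of these windows of the dense bins. A word in a window is a match of letters and not a site. These intervals cover counting only, since neighbouring peaks are not independent.

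The dense bins were the end of a continuous distribution, except for 1 bin. Over all bins the median of the others was 6 summits, and the counts fell off without a gap up to 18: 33 bins held 13 summits, 26 held 14, 15 held 15, 7 held 16, 2 held 17 and 2 held 18. A single bin stood apart with 26 summits, at chrII:10540001-10560000, over the gene mnk-1. Every chromosome had dense bins, 10 on chromosome I, 9 on II, 8 on III, 8 on IV, 9 on V and 9 on X. The other bins numbered 744, 755, 682, 867, 1038 and 877 in the same order. When each chromosome was cut into 3 equal parts, the middle parts held 14 dense bins and the outer parts 39. Of the other bins these parts held 1655 and 3308.

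**Figure D1:**
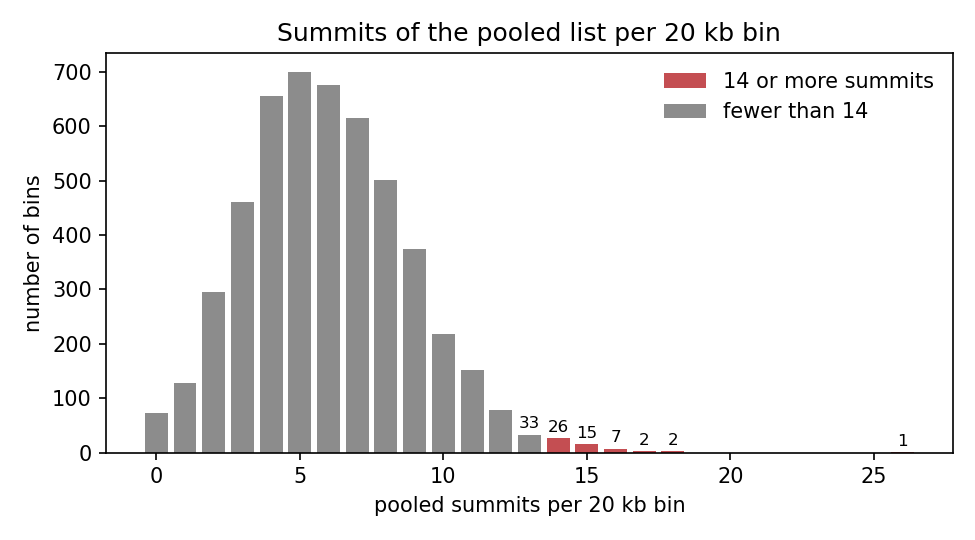
Number of 20 kb bins (vertical axis) with each count of pooled summits (horizontal axis). Red bars are the 53 dense bins, with 14 or more summits, and grey bars are the other 4963; the numbers above the bars show the steep fall from 33 bins with 13 summits to the single bin with 26.

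Most dense bins did not adjoin another. Their 106 flanking bins held a median of 7 summits (0 to 16), against 6 in the other bins, with means of 6.87 and 5.88. Of these 106 flanks 4 were dense themselves, while 53 of all 5016 bins were dense. The 4 form 2 neighbouring pairs, on V over unc-62 and sos-1, and on X around ceh-63. Within dense bins the median distance between neighbouring summits was 964 bp, against 1916 bp elsewhere, and the shortest was 199 bp in both. Gaps of 500 bp or less made up 18.7% of the gaps in dense bins and 7.56% of the others. Of the pooled intervals, 223 of the 797 peaks, or 28.0% (25 to 31.2), overlapped another pooled peak, against 10.9% (10.5 to 11.2) of the other peaks. In the bins with 13 summits the overlapping share was 25.6%. Each peak interval is 370 bp wide but for 1 in the whole list, and whether overlapping intervals are parts of a single broader stretch was not tested.

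When only the strongest of overlapping peaks was counted, most dense bins fell below the threshold. The pooled list then held 28267 peaks, the 53 bins held 680, and 18 bins still had 14 or more, all of them among the 53. The median dense bin fell from 15 to 13 peaks and the median of the other bins from 6 to 5. The mnk-1 bin kept 18, and the next, over egl-27, held 16, so it stood less apart. This way of counting was added after the data had been seen.

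Each replicate list also placed more summits in the dense bins than elsewhere, though fewer than the pooled list did. In replicate 1 the dense bins held 13.5 ± 2.68 summits (SD over 53 bins, range 9 to 25) and in replicate 2 12.5 ± 2.75 (range 8 to 21). The other bins averaged 5.90 and 5.91 in the 2 lists. No dense bin had fewer than 8 summits in either list. The threshold of 14 was reached in replicate 1 by 22 of the 53, where 1.2% of all bins reach it, in replicate 2 by 19, where 0.698% of all bins do, and in both by 9. In 21 dense bins neither replicate list alone reached 14. Replicate 1 had the higher count in 27 bins, replicate 2 in 16, and 10 were equal. The pooled list was called on the reads of both replicates with the same control, so these lists are not independent of the rule.

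The 9 bins that reached the threshold in all 3 lists lay over mnk-1, ZK470.2, pqn-41, Y111B2A.12, the rpl-15 region, the arrd-17 and taf-9 region, lin-14, kin-1 and kin-20. The kin-1 gene encodes the catalytic subunit of protein kinase A, kin-20 a casein kinase 1 family member, and lin-14 a nuclear protein that sets the timing of larval development. The counts in the pooled, replicate 1 and replicate 2 lists were 15, 15 and 15 at lin-14, 16, 15 and 15 at pqn-41, and 14, 17 and 16 at kin-20. Elsewhere the replicates differed more: the bin with nhr-102, nhr-84 and srz-12 held 16 pooled summits, 18 in replicate 1 and 9 in replicate 2. A single bin outside the set reached 14 in both replicate lists, at chrV:10700001-10720000, with 13 in the pooled list.

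**Figure D2:**
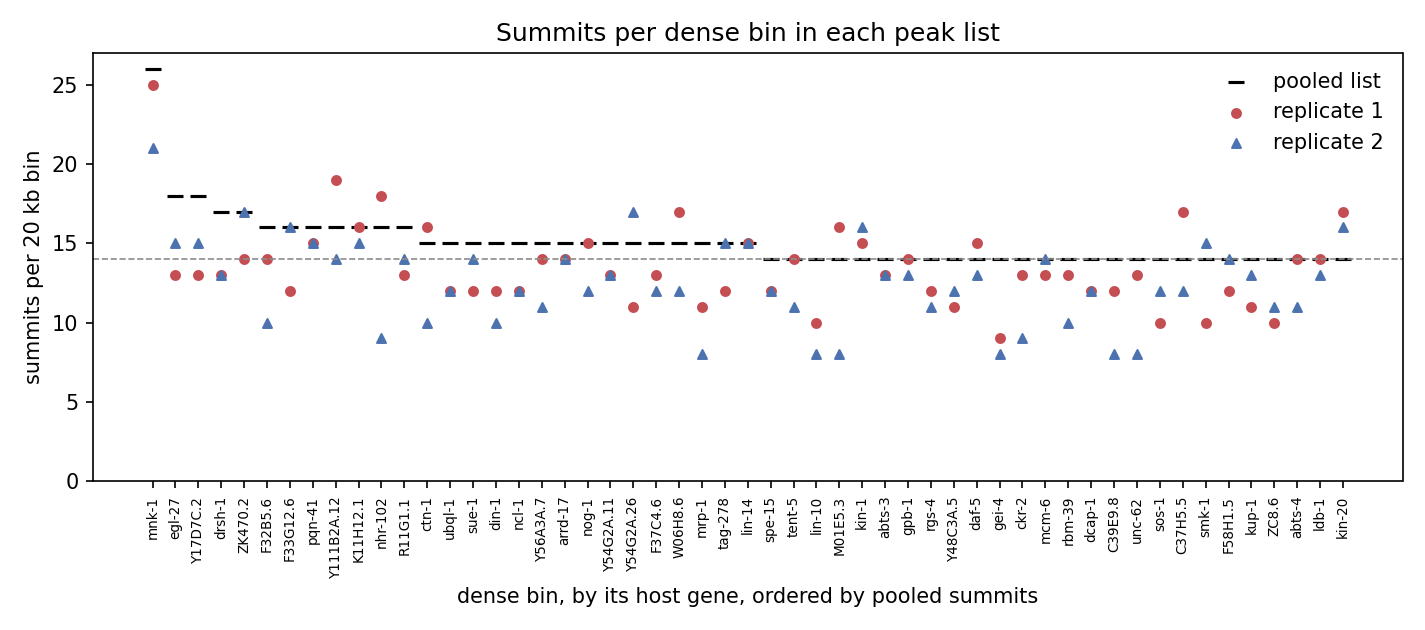
Summits per 20 kb bin (vertical axis) for each of the 53 dense bins, with the pooled list as black bars, replicate 1 as red circles and replicate 2 as blue triangles. Each bin is named by the gene with the highest count of its summits, or the first by name of tied genes. The dashed line is the threshold of 14, and most replicate points lie between 8 and 17, while the mnk-1 bin is highest in all 3 lists.

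The peaks of dense bins ranked higher by signal than other peaks. Their median pooled rank was 10654, against 15108 for the other pooled peaks, where rank 1 is the strongest. The top 3000 pooled peaks included 22.2% (19.5 to 25.2) of the dense-bin peaks and 9.67% (9.33 to 10.01) of the others. Ranks of the nearest replicate summit within 200 bp gave the same order, with medians of 7393 against 11559.5 in replicate 1 and 8126 against 11588 in replicate 2. The median was 12253 in the bins with 14 summits and 13833 in the bins with 13, the bins just inside and just outside the threshold.

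The deposited reproducible list, made by the authors with an irreproducible discovery rate (IDR) threshold, held 479 peaks, 1.6% of the pooled list. Of the 797 dense-bin peaks 48 were in it, or 6.02% (4.57 to 7.89), against 431 of 29203 others, or 1.48% (1.34 to 1.62). The reproducible peaks are exactly the highest-signal pooled peaks, so this share restates the ranks. The share was higher in dense bins than in the others on each chromosome, from 4.14% against 1.26% on II to 8.96% against 1.80% on X. On X, the 2 dense bins next to ceh-63 held 4 and 2 of the 12 reproducible dense-bin peaks. The transgene carries a further ceh-63 copy, and its part in this share was not tested. A q-value of 0.05 or less was reached by 18 dense-bin peaks, or 2.26% (1.43 to 3.54), against 0.603% of the others and 0.647% of all pooled peaks. At the threshold, the reproducible share was 4.12% in bins with 14 summits and 3.26% in bins with 13.

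Most dense-bin peaks were outside the reproducible list. In all, 31 of the 53 bins held a reproducible peak, of which 18 held 1, 10 held 2, 2 held 3 and 1 held 4. Among the other bins 381 of 4963, or 7.68%, held at least 1, a share that also depends on how many peaks a bin has. Dense bins with no reproducible peak included those of egl-27, which encodes an MTA-family chromatin protein (18 pooled summits, best rank 936), ncl-1, which encodes a B-box protein that limits nucleolar size (15 summits, best rank 4332), and unc-62, which encodes a Meis-type homeodomain protein (14 summits, best rank 6340). By their ranks in the replicate lists, 23 of the 48 were among the top 479 in both, 9 in replicate 1 alone, 10 in replicate 2 alone and 6 in neither. The same split was not made for the 431 reproducible peaks of the other bins, so whether it differs there is unknown.

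**Figure D3:**
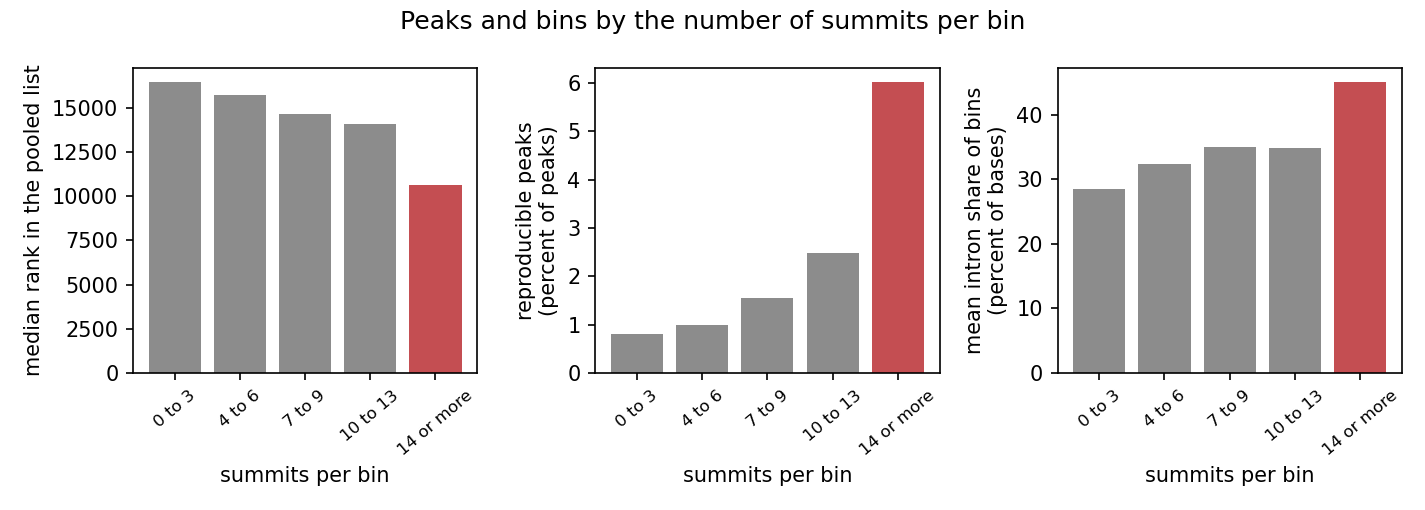
Median pooled rank of peaks (left, rank 1 strongest), share of peaks in the reproducible list in percent (middle) and mean intron share of the bins' bases in percent (right), for bins grouped by their pooled summits, with the dense bins in red. Rank falls from 16451 to 10654 and the reproducible share climbs from 0.808% to 6.02% across the 5 groups, and the intron share steps from 34.8% to 45% at the last group.

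Summits of dense bins lay within 200 bp of a summit in both replicate lists in 51.3% (47.8 to 54.8) of cases, against 42.8% (42.2 to 43.4) of the other peaks and 43% of all pooled peaks. A counterpart in replicate 1 was present for 73.4% against 67.5%, and in replicate 2 for 72.9% against 70.0%. Neither list had one for 5.02% against 5.30%. In an average dense bin 25.6% of the bases lay within 200 bp of a replicate 1 summit, against 11.6% elsewhere, and 24.0% against 11.5% for replicate 2. In bins with 13 summits these base shares were 22.0% and 18.6%, and 39.4% of the peaks matched both lists. A match by position can also arise from crowding alone, and its part in these shares was not tested.

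The mnk-1 bin was the densest of all in the pooled list and in both replicate lists, with 26, 25 and 21 summits. The next highest count of any bin was 18 in the pooled list and 19 in each replicate list. The gene encodes a kinase of the MAP kinase-interacting family and spans chrII:10542421-10555044 on the reverse strand, 12624 bp, which held 17 of the 26 pooled summits. The 26 summits stretched over 17386 bp, and 10 fell in introns, 7 between genes, 5 in coding exons, 2 in exons of non-coding genes, 1 in a 5′ UTR and 1 in a 3′ UTR. The bin also contains the snoRNA genes R166.7 and R166.10, the ncRNA gene R166.11 and part of pro-1, which encodes a WD-repeat protein of ribosomal RNA processing. Its GC content was 39.4%, and the bins on either side held 7 and 9 summits.

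Peaks of the mnk-1 bin ranked above dense-bin peaks as a whole, and its strongest peak ranked 381. The signals of the 26 pooled peaks ran from 45.8 to 117.7 (median 70.6, in the caller's own units). Their median rank was 5403.5, against 10654 for all dense-bin peaks. The single reproducible peak, the first of the pair printed above, ranked 381 in the pooled list, 441 in replicate 1 and 387 in replicate 2. Of the 26 peaks 7 were in the pooled top 3000 and 17 in the top 15000. Replicate 1 had a counterpart within 200 bp for 22 of them, replicate 2 for 21, and both for 18. Pooled peaks could share a counterpart, as both peaks of the printed pair did in replicate 1. These are thus counts of pooled peaks and not of distinct replicate summits. The median rank of the bin's own summits was 7210 in replicate 1 and 7678 in replicate 2. Of these summits, 2 in replicate 1 and 5 in replicate 2 were among the top 479 of their list. In total 14 of the 26 intervals overlapped another.

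**Figure D4:**
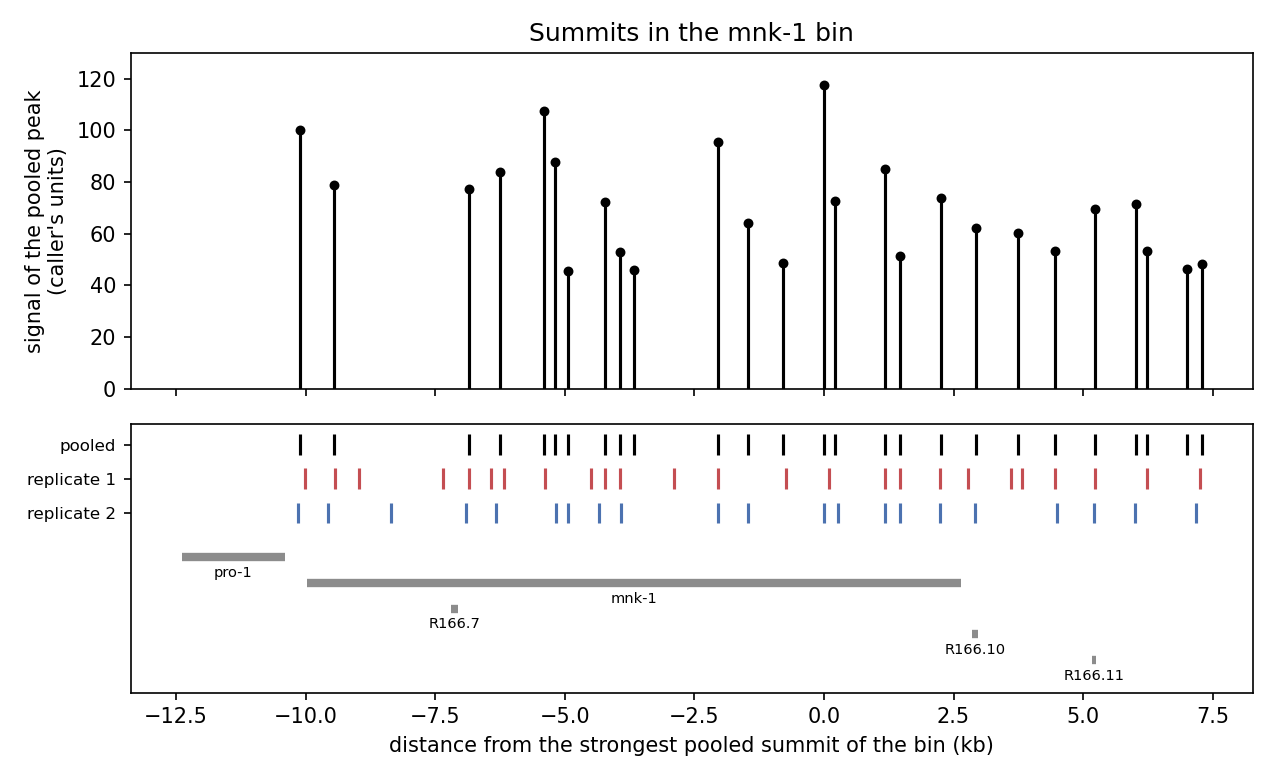
Above, signal of each pooled peak in the mnk-1 bin (vertical axis, caller's units) against distance in kb from the bin's strongest summit; below, the summits of the pooled list and of each replicate list with the genes of the bin as grey bars. The summits run from end to end of mnk-1 and on past it to the right, with no signal above 117.7.

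The dense bins next to ceh-63 on X held some of the strongest peaks of the pooled list. The bin at chrX:3660001-3680000 held 16 pooled summits, 13 in replicate 1 and 14 in replicate 2, and 4 reproducible peaks, the most of any dense bin. They were at ceh-63 itself, in the 5′ UTR at chrX:3673599-3673968 (rank 2 in the pooled list and in both replicates, signal 460.7), upstream of tag-52 (rank 17 in the pooled list, 4 in replicate 1 and 42 in replicate 2), in a coding exon nearest to the start of tag-52 (rank 93) and in a coding exon near C02F12.5 (rank 253). The adjoining bin at chrX:3680001-3700000 held 15, 12 and 15 summits and 2 reproducible peaks, with C02F12.8 nearest to the better (rank 51) and tag-278 to the other (rank 162). The transgene carries a further ceh-63 copy, and its extent and copy number are not stated in the labels. Its part in these counts was not tested. Without these 2 bins the reproducible share of dense-bin peaks was 5.48%.

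Other dense bins with a highly ranked peak lay over genes of varied function. The bin at chrIV:640001-660000 held 16, 16 and 15 summits in the pooled, replicate 1 and replicate 2 lists, spread over K11H12.1, K11H12.8 and rpl-15, a gene for a protein of the large ribosomal subunit. Its best peak lay 361 bp upstream of the rpl-15 start and ranked 36, 29 and 46 in those lists. In the bin at chrIII:1920001-1940000 all 16 pooled summits lay in pqn-41, which encodes a glutamine- and asparagine-rich protein, 14 of them in introns. Its best peak ranked 79 in the pooled list, 100 in replicate 1 and 77 in replicate 2, and the second peak of the printed pair, at rank 215, was matched to the same replicate 1 summit. Among the 10 best-ranked dense-bin peaks were also those nearest to F15C11.7 (rank 86), C52E4.16 (rank 87), F10C2.10 (rank 88) and F44E5.4, a gene of the inducible Hsp70 family (rank 125).

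Genes that host the dense bins were long and protein-coding. The host of a bin was defined as the gene with the highest count of its summits, leaving out pseudogenes and piRNA genes. In 47 bins a single gene did so, and in the other 6, where 2 or 3 genes tied, the first by name was taken, as with kup-1 over pkc-1. All 53 hosts were protein-coding, with a median span of 9571 bp, against 2027 bp for all 19973 coding genes, and 26 spanned 10000 bp or more, as 998 coding genes do. A longer gene can hold more summits, so this rule favours long genes. The host held at least 50% of the summits in 26 bins and all of them in 6. In all, 195 genes held a dense-bin summit, 80 of them a single one and 17 of them 10 or more.

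Over these genes, sos-1, which encodes a Ras guanine nucleotide exchange factor, held 18 summits in dense bins, and mnk-1 held 17. The mnk-1 gene lies wholly in its bin, whereas sos-1, at 32348 bp, runs on past its dense bins, and summits beyond them are not counted. They were followed by pqn-41 with 16, ncl-1 with 15, and Y48C3A.5, ZC8.6 and kin-1 with 14 each. The genes abts-3 (an anion transporter), lfi-1, spe-15 (a myosin VI) and sue-1 held 12 each, and lfi-1 lies within ZC8.6, so the summits there are shared. Among these genes sue-1 and mnk-1 were the shortest, and kin-1, at 38461 bp, the longest.

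Some dense bins had no dominant host. The egl-27 bin held 18 pooled summits, 13 in replicate 1 and 15 in replicate 2, with 11 of the pooled summits between genes and 21 annotated gene starts, 1 of them coding. The bin of drsh-1, which encodes the Drosha nuclease of microRNA processing, held 17, 13 and 13 summits, with 3 in drsh-1. The Y17D7C.2 bin held 18, 13 and 15 summits and 2 reproducible peaks. It had the lowest median rank number of the dense bins (2169.5) and the lowest GC content (33.2%), and repeated 31-base words covered 13.0% of it. The other hosts among the 20 densest bins were ZK470.2, F32B5.6, F33G12.6, Y111B2A.12, R11G1.1, ctn-1 (alpha-catulin), ubql-1 (ubiquilin), sue-1, din-1 (a corepressor acting with the nuclear receptor DAF-12), Y56A3A.7 and nog-1 (a nucleolar GTPase). Their bins held 15 to 17 pooled summits. In all, 15 bins held 15 summits, and of these the first by chromosome and position complete the 20. The 7 equally dense bins left out lay over Y54G2A.11, Y54G2A.26, F37C4.6, W06H8.6, mrp-1, tag-278 and lin-14.

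By feature class, summits of dense bins were more often intronic and less often in coding exons or between genes. Introns held 40.5% (37.2 to 44.0) of the dense-bin summits and 29.1% (28.6 to 29.6) of the others, coding exons 25.8% (22.9 to 29.0) against 33.5% (33.0 to 34.1), and intergenic sequence 24.0% (21.1 to 27) against 30.4% (29.9 to 30.9). The bins themselves differed in the same direction: introns made up 45% of the bases of an average dense bin and 32.6% elsewhere, and intergenic sequence 25.3% against 36.4%. In both kinds of bin the intron share of summits was below that of the bases, and the coding exon share was above it. The 3′ UTR share was 4.52% against 2.80%, the 5′ UTR share 2.38% against 1.71%, and the share in non-coding exons 2.76% against 2.47%. An annotated start lay within 1000 bp of 49.8% (46.3 to 53.3) of the dense-bin summits and 53.6% (53.0 to 54.2) of the others.

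The intron share varied with how the bins were chosen. At the threshold it was 46.7% in bins with 14 summits and 32.2% in bins with 13. Introns made up 51.5% and 34.0% of the bases of these bins. The coding exon share of summits was 24.2% in bins with 14 and 35.0% in bins with 13. The intron share was 34.5% with bins shifted by 10 kb and 33.2% in bins with 16 or more summits. In bins chosen from the replicate 1 list it was 33.9%, and in those from the replicate 2 list 41%. Among the reproducible peaks alone, 18 of 48 in dense bins were intronic (37.5%), against 19.7% of the 431 others, and 28 of 48 lay within 1000 bp of a start (58.3%), against 68.4%.

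**Figure D5:**
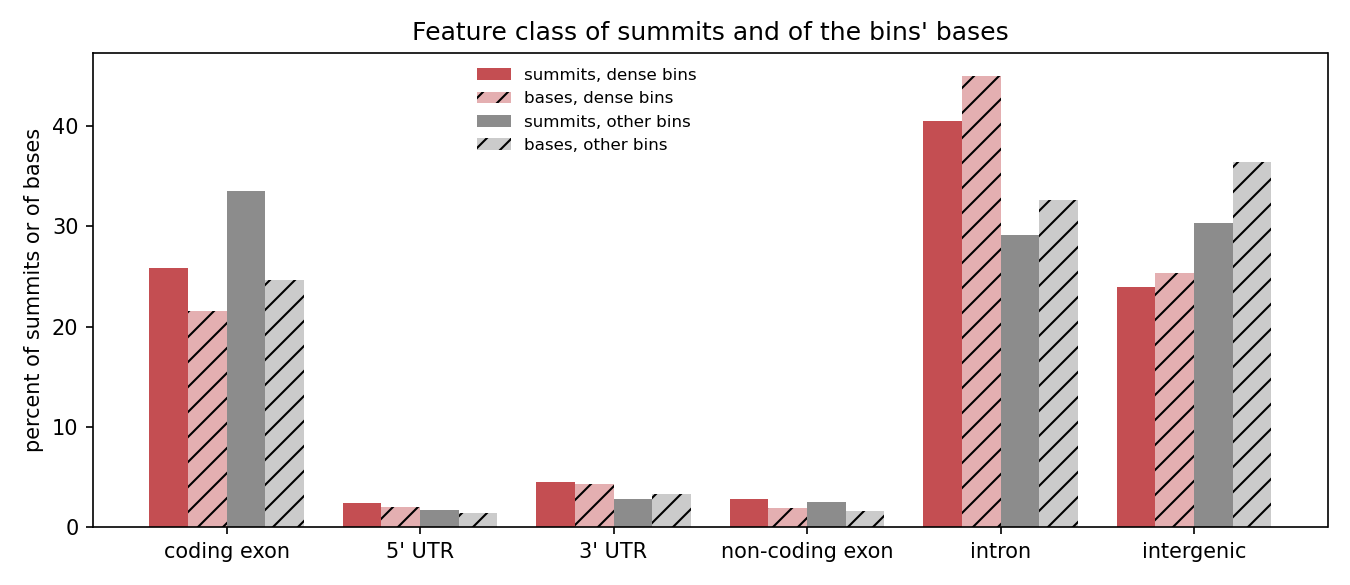
Percent (vertical axis) of pooled summits (solid) and of bases (hatched, mean over bins) in each feature class, for dense bins (red) and other bins (grey). Introns take 40.5% of the summits and 45% of the bases of dense bins, against 29.1% and 32.6% elsewhere.

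Dense bins had a higher GC content and fewer repeated words than the others. Median GC was 37.2% (range 33.2 to 41.1) against 35.3%, and the peak intervals themselves had a median of 40% against 38.1%. Words of 31 bases that recur in the genome covered a median of 2.10% of a dense bin and 4.64% of the others, whereas the masked share was similar, 31.8% against 32.2%. Across bins grouped by summits, from 0 to 3 up to 14 or more, median GC went from 34.7% to 37.2%. Repeated words went from 11.6% to 2.10%, and were already at 2.18% in bins with 10 to 13 summits. Bins with 13 summits had a median GC of 37.2% and a median of 2.86% in repeated words. Neither trait was thus particular to the dense bins. Reads that lie wholly within repeated sequence cannot be placed uniquely, while reads that reach past a repeated word may be. The recovery of reads by the library preparation varies with GC. The part of either in the counts was not tested.

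Leaving out pseudogenes and piRNA genes, dense bins held a median of 6 gene starts, as did the other bins, with means of 5.83 and 5.86, but fewer coding starts, with a median of 2 against 4. A single gene covered 46.5% of an average dense bin against 31.9%, and at least 75% of the bin in 7 of 53 dense bins (13.2%) and 220 of the others (4.43%). The longest gene of a bin had a median span of 10620 bp against 7022 bp.

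Of all 46890 annotated genes, pseudogenes and piRNA genes included, 332 (0.708%) start in a dense bin, while these bins hold 1.06% of the bases. By type these were 160 of 19973 coding genes (0.801%), 125 of 7764 ncRNA genes (1.61%), 12 of 346 snoRNA genes (3.47%), 6 of 612 tRNA genes, 3 of 261 microRNA genes, 1 of 129 snRNA genes, 14 of 2128 pseudogenes and 9 of 15363 piRNA genes (0.0586%). The many piRNA genes lower the share over all genes. Without them and the pseudogenes, an average other bin held 5.86 starts and an average dense bin 5.83. Among the families, 3 of 78 ribosomal protein genes (rpl-15, rpl-22 and rps-24), 2 of 269 nuclear hormone receptor (nhr) genes, 1 of 63 ceh homeobox genes (ceh-63), 7 of 1369 chemoreceptor (sr) genes, 1 of 322 F-box (fbx) genes and 1 of 156 collagen (col) genes start there. None of the 72 histone (his), 94 unc, 240 clec, 37 math or bath, 67 ugt, 74 cyp and 140 nlp, flp or ins genes does.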

How the data were processed

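The files held 4 lists of peak intervals on ce11 (WBcel235). According to the deposited README text, the authors ran peak calling on replicate 1, on replicate 2 and on their combined alignments (the pooled list). A single control alignment served all 3 lists, from which an IDR threshold gave the reproducible list. No aligner, caller, read depth or threshold is given in the sources used here, so depth is unknown. The deposited signal of each peak has no stated scale and served only to rank peaks within a list. The deposited −log10 q-value was used for a threshold of 0.05. The summit offset (an other, positional value) is deposited with each peak.

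Summits were counted in 20 kb bins. A pooled summit was matched to the nearest replicate summit if within 200 bp, and a replicate summit could match several pooled summits. Each summit and base was given 1 feature class from the Ensembl release 115 gene models, without pseudogenes, coding exon first, then 5′ UTR, 3′ UTR, non-coding exon, intron and intergenic. GC, words of 31 bases and masking came from the RefSeq WBcel235 genome. Coordinates are 1-based. Shares carry 95% Wilson intervals, which cover counting only. No test was made, since 1 group of 2 samples has no comparison and the bins were chosen by the counts described. The bin counting was tested on simulated data. Python 3.11.15, numpy 2.4.6, pandas 2.3.3, scipy 1.17.1 and matplotlib 3.10.9 were used.

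The bins, gene families and motifs were chosen with earlier results of these data known. Named genes are the hosts of the 20 densest bins, mnk-1, the genes nearest to the 10 best-ranked dense-bin peaks, the 10 genes with most summits in dense bins, with those tied at the last place, and ceh-63. Ties were ordered by chromosome and position for bins and by name for hosts. The genes unc-62, kin-20, lin-14, tag-278, pkc-1, Y54G2A.11, Y54G2A.26, F37C4.6, W06H8.6, mrp-1, C02F12.5, rpl-22, rps-24, pro-1, R166.7, R166.10 and R166.11 are named beyond the rule, chosen after seeing their values. Other bin widths, thresholds and borders, single replicate lists, and the higher-signal part of the list were tried as alternatives.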

Additional observations from a re-analysis of the deposited data

How the results depend on the processing

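Which bins count as dense, and the shares that rest on them, varied with the choice of bins. Of 102 alternative values 59 stayed close to the reported value and 43 moved. Close means within the 95% Wilson interval of the reported value for shares, within 1.5 times for the number of bins, and within 1 SD of the values from the single replicate lists for the rest. Some of the 59 could not have moved, so the tally overstates stability. Feature classes at interval centres equal those at summits, because the summits of these peaks lie at the centre. Each replicate's mean count per dense bin was compared with an SD from those same means, which it cannot exceed. The number of dense bins was 408 with 10 kb bins of 7 or more summits and 1 with 40 kb bins of 28 or more. In 20 kb bins it was 165 with 12 or more summits and 12 with 16 or more. From the higher-signal part of the list it was 297, with 7 or more summits required. It was 35 to 60 from a single replicate list, and 18 with overlapping peaks counted as 1 (added after the data were seen). In the first 3 of these and from the higher-signal part, the reproducible share was 3.67%, 3.03%, 4.14% and 4.36%, and the coding exon share 32.6%, 21.2%, 30.3% and 29.8%. The coding exon share was 22.2% to 30.1% from single replicate lists. The median rank was 12337 with 10 kb bins, 7419 with 40 kb bins, 12488.5 with 12 or more, 9176 with 16 or more and 9168 to 10883.5 from single replicate lists. The intron share was 34.5% with shifted bins, 32.7% with 10 kb bins, 36.4% with 40 kb bins, 35.9% with 12 or more, 33.2% with 16 or more, 32.2% from the higher-signal part and 33.9% to 41% from single replicate lists. The intergenic share was 27.3% with 40 kb bins, 30.8% with 16 or more and 29.2% from the higher-signal part. The non-coding exon share was 4.73% with shifted bins and 6.06% with 40 kb bins, and the 5′ UTR share 0.962% with 16 or more. GC was 36.3% from the higher-signal part and 40% over peak intervals. Gene starts per 20 kb were 6.42 with shifted bins, 6.5 with 10 kb and with 40 kb bins, 6.92 with 16 or more, 5.65 to 6.46 from single replicate lists, and 3.02 for coding genes alone. The cause of these moves was not tested. No paired analysis was possible because the series has 1 group. The 40 kb bins rest on a single bin, and the depth of the libraries is unknown.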
